A study of Mus musculus with 38 samples.

Results

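Mouse embryonic stem cells that had been held in the SWI/SNF inhibitor BRM014 for 24 h and then washed and grown without it for another 24 h were set against cells given only the solvent DMSO for 24 h. The comparison rests on 4 of the 38 libraries of the series, 2 of washed cells and 2 of DMSO 24 h cells, and its purpose is to show what differed a day after the drug was removed. All cells were wild type, from a 129S6/SvEvTac embryonic stem cell line kept on gelatin with serum and LIF, and the libraries hold stranded total RNA. The labels give no dose for the drug before washout. Further groups of the same batch are used beside these: BRM014 at 10 uM for 24 h without washout, 24 h of BRM014 followed by 6 h of washout, an inactive analog of BRM014 at 10 uM for 24 h, and DMSO for 1 h, with 2 libraries each. Genes that respond to the drug were chosen in a second batch, from wild-type cells given 10 uM BRM014 or DMSO for 24 h, 2 libraries each. No vehicle was washed and none was kept for 48 h, so washout and a longer time in culture cannot be told apart.

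SWI/SNF complexes, also called BAF complexes, use the ATPase Smarca4 (BRG1) or Smarca2 (BRM) to slide and evict nucleosomes, which opens enhancers and promoters to transcription factors. BRM014 blocks the ATPase activity of both. In embryonic stem cells the Smarca4 form is needed for self-renewal and for the open state of many pluripotency enhancers.

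Most listed markers of embryonic stem cells had counts in the libraries, which does not test the labels of treatment or time. Of 10 embryonic stem cell markers 8 had counts, and Pou5f1, the pluripotency factor Oct4, had 1790 and 1650 CPM (a gene's counts scaled by the total of its library) in washed cells, against 1773 and 1511 CPM in DMSO 24 h cells. Nanog had 578 and 586 CPM in washed cells, against 491 and 572 CPM in DMSO 24 h cells. Sox2 and Fut4 were listed at 0 in every library, as were 6709 of 21897 protein-coding genes, among them Smarca4, so nothing can be said of these genes. Smarca2 had 12.2 and 13.7 CPM in washed cells, against 11.98 and 16.20 CPM in DMSO 24 h cells, with no difference called (log2 fold change -0.12 ± 0.13, SE, adjusted p = 0.611). Library totals were 19.35 to 21.97 M counts in the 4 libraries. Replicates are biological according to the labels' protocols, but nothing ties them to cultures or days, so p-values measure only the spread among these samples, which may be technical.

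A day after washout, 1115 genes were higher and 1066 were lower in washed cells than in DMSO 24 h cells, which is 8.91% and 8.52% of the 12517 genes tested (edgeR quasi-likelihood test, Benjamini-Hochberg adjusted p under 0.05). Most of these differences were small, with a median size of 0.40 on the log2 scale among called genes, and 235 genes (1.88%) were higher and 84 (0.671%) lower by at least 2-fold. As in any bulk sample, a change in the share of cells that express a gene and a change in RNA per cell cannot be told apart. Against the drug itself the distance was much larger, with 6305 genes (50.4%) called between washed cells and cells still in BRM014, 3227 higher (25.8%) and 3078 lower (24.6%) in washed cells. Of the genes called over DMSO 24 h, 628 were also higher and 547 also lower than in DMSO 1 h cells (5.02% and 4.37% of genes tested), and 56 had the opposite call there. Comparisons with these references share the washed libraries and are given side by side. All of them use a spread pooled over the groups of the batch. Of these groups the DMSO 24 h pair was the least alike. Its chi-square per degree of freedom between replicates was 16.29, against 8.058 for washed cells and 2.043 for DMSO 1 h cells. The pooled spread may thus be too small for this pair. A fit of only the libraries compared, with few residual degrees of freedom, called 351 genes higher and 304 lower than in DMSO 24 h cells. The count over DMSO 24 h depended on single libraries: it was 722 higher and 683 lower without washout replicate 1, 764 and 656 without washout replicate 2, and 624 and 508 without DMSO 24 h replicate 2. The count lower than both vehicles was 295 without washout replicate 2 and 331 without DMSO 24 h replicate 2.

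**Figure D1:**
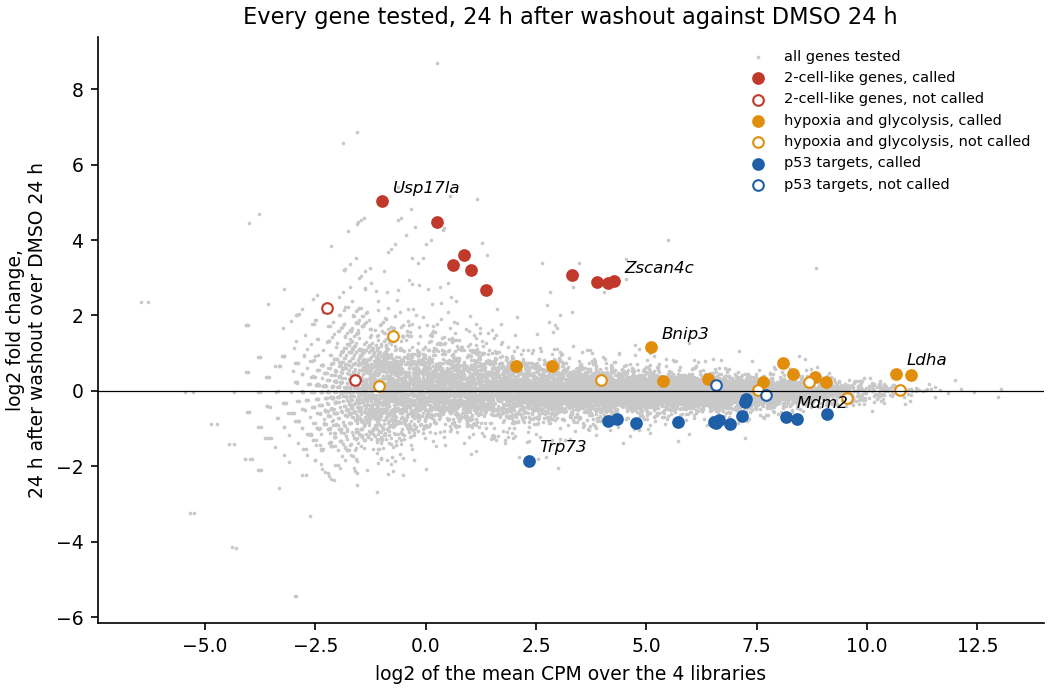
Each point is a gene, with its log2 fold change in washed cells over DMSO 24 h cells against log2 of its mean CPM over the 4 libraries. Filled coloured points are called members of 3 gene lists: the 2-cell-like genes lie far above 0, hypoxia and glycolysis genes a little above it and p53 targets below it.

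The largest rises belonged to genes of the 2-cell-like state. Embryonic stem cell cultures hold a small share of cells that switch on genes of the 2-cell embryo, driven by the factor Dux and marked by the Zscan4 cluster, which encodes zinc finger proteins tied to telomere maintenance, and by MERVL-linked genes. Of 15 genes listed, 12 were tested, 10 rose and 0 fell, where 8.91% of all genes tested were higher. The median log2 fold change was 2.99, against -0.0034 over all genes tested. A gene can pass the low-count filter through washed libraries alone. For members near 0 in DMSO 24 h cells, such as Usp17la and Zfp352, a fall could therefore not have been seen. Duxf3, Tcstv1 and Usp17lc were listed at 0 in the 4 libraries. Summed over the list, washed cells had 128 and 126 CPM, against 17.2 and 15.8 CPM in DMSO 24 h cells.

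The RefSeq windows of 3 Zscan4 genes, each called higher in washed cells, are printed to show how alike the copies are. They run from 250 bases before to 50 bases after the start of the gene. They are from build GRCm38.p6, 5′ to 3′ on the gene's strand, and capitals mark the motif TATAAA, searched on both strands. Zscan4c is at chr7:11005495-11005794 on the plus strand, Zscan4d at chr7:11166099-11166398 on the minus strand and Zscan4f at chr7:11397665-11397964 on the plus strand.
Zscan4c: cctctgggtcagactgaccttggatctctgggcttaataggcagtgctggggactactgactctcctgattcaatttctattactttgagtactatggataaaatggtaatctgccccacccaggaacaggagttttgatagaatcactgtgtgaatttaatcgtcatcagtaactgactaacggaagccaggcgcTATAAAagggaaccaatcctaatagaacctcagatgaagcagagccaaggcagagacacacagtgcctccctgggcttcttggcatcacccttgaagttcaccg
Zscan4d: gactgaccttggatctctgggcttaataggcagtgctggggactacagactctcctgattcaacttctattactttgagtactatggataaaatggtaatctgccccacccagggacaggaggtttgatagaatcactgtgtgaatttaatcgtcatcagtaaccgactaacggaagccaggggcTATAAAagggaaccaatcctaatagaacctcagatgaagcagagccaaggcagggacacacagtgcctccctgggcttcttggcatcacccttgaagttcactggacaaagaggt
Zscan4f: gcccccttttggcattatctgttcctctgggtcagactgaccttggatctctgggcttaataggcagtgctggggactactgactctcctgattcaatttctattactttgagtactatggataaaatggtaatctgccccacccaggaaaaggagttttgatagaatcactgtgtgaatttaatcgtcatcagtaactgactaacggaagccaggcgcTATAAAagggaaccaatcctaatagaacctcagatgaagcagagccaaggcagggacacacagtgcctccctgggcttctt
The windows of Zscan4c and Zscan4f were identical at 99.3% of aligned bases, those of Zscan4c and Zscan4d at 97.2% and those of Zscan4d and Zscan4f at 97.4%. Each holds 1 TATAAA, which 13.6% of 32851 RefSeq windows of this length also hold. Of the 12 tested list members 7 have a window and 3 hold the motif, all 3 of them printed here. Copies as alike as these can share reads, and how the authors' counting split such reads is not given in the sources used here, so the values of single copies are uncertain.

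Zscan4c had 32.8 and 35.0 CPM in washed cells, against 5.005 and 3.98 CPM in DMSO 24 h cells (log2 fold change 2.91 ± 0.16, SE, adjusted p = 2.71e-13). Zscan4f had 31.5 and 30.3 CPM in washed cells, against 4.09 and 4.46 CPM in DMSO 24 h cells (2.85 ± 0.17, adjusted p = 4.7e-13). Zscan4d had 26.1 CPM in both washed libraries, against 3.49 and 3.56 CPM in DMSO 24 h cells (2.89 ± 0.21, adjusted p = 6.59e-11). For each gene both washed libraries lay several times above both DMSO libraries, with no overlap. The family can be summed over its 9 members with counts, which does not depend on how reads were split among them. Its sum was 215 and 221 CPM 24 h after washout, 109 and 97.8 CPM at 6 h, and between 11.0 and 32.6 CPM in the other 22 libraries of the batch, which include cells still in BRM014 (29.9 and 23.3 CPM). All 9 members rose, Zscan4a among them, which the annotation lists as an unprocessed pseudogene.

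Other members rose by as much from lower levels. Gm4340, a predicted gene, had 18.9 and 16.8 CPM in washed cells, against 2.16 and 2.04 CPM in DMSO 24 h cells (log2 fold change 3.08 ± 0.25, adjusted p = 5.98e-10). The MERVL-linked gene Zfp352 had 51 and 44 counts in washed cells, against 1 and 3 in DMSO 24 h cells, a ratio of 23.3 with a 95% counting interval of 8.82 to 87.4. Usp17la, of a deubiquitinase family with many copies, had 18 and 23 counts in washed cells, against 1 and 0 in DMSO 24 h cells, a ratio of 40.3 with an interval of 6.83 to 1629. The arginase Arg2 (2.66), Tmem92 (3.19), Sp110 (3.35) and Tcstv3 (3.62 on the log2 scale) were also called. Trim43b and Trim43c, with log2 fold changes of 0.29 and 2.21, were not called (adjusted p = 0.82 and 0.107). All 10 rises were also called over DMSO 1 h, with a list median of 3.39, and over the inactive analog, with a median of 3.81, where Trim43b was lower. DESeq2 called 8 of the 10.

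**Figure D2:**
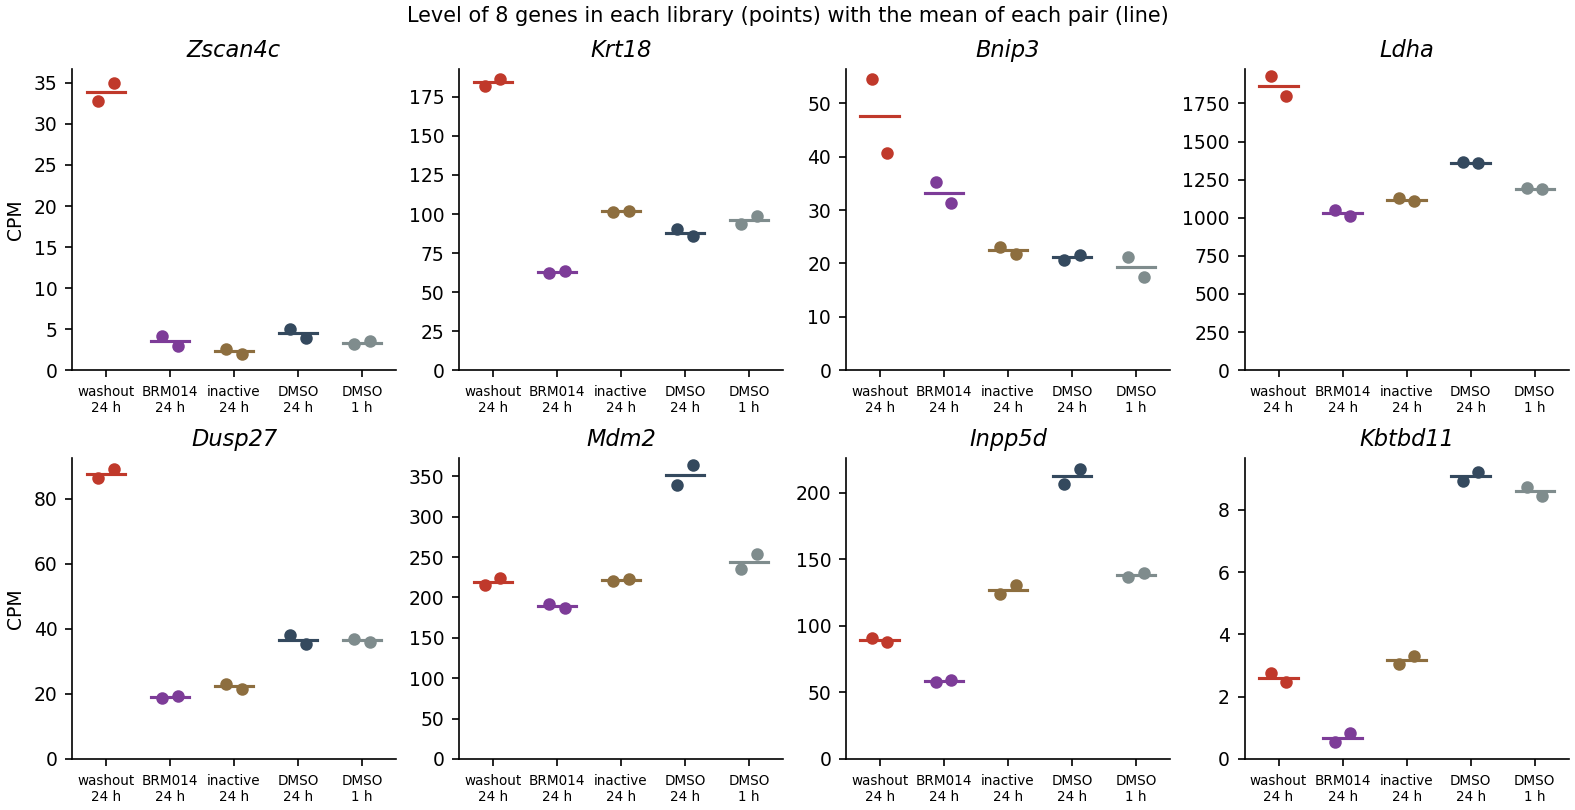
The CPM of 8 genes is drawn from 0, with 1 point per library and a line at the mean of the 2 libraries, for washout 24 h, BRM014 24 h, inactive analog 24 h, DMSO 24 h and DMSO 1 h. Of the groups drawn, Zscan4c is highest in washed cells (32.8 and 35.0 CPM) and Mdm2 in DMSO 24 h cells (340 and 364 CPM).

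Genes of hypoxia and glycolysis rose together, by less. These are targets of the HIF transcription factors, which are degraded when oxygen is plentiful, and enzymes that turn glucose into lactate. Of 22 genes listed, 19 were tested, 12 rose and 0 fell, where 8.91% of all genes were higher. The median log2 fold change of the list was 0.31. Their summed level was 9908 and 9042 CPM in washed cells, against 7908 and 7763 CPM in DMSO 24 h cells. It was 7556 and 7459 CPM at 6 h after washout and 6944 and 7088 CPM in cells still in BRM014. Over DMSO 1 h 10 rose and the median was 0.32 (12.9% of all genes tested were higher in that comparison). Set against the inactive analog, 12 rose and the median was 0.37, where 12.5% of all genes were higher. The count over DMSO 24 h was 7 higher and 1 lower without washout replicate 1.

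Bnip3 and Pgk1 each had a single RefSeq window and carry the short core of a hypoxia response element, so their windows are printed. Capitals mark ACGTG on either strand, so that CACGT is the same motif read on the other strand and CACGTG is a match on both strands that overlap. The Bnip3 window is chr7:138909457-138909756 on the minus strand and the Pgk1 window chrX:106186850-106187149 on the plus strand, build GRCm38.p6, 5′ to 3′ on the gene's strand.
Bnip3: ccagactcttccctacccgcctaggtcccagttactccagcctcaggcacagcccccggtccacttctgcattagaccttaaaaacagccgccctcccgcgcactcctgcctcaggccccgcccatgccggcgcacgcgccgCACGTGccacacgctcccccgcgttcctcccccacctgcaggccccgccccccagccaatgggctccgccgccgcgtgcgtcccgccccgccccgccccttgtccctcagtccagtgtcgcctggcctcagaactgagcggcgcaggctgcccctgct
Pgk1: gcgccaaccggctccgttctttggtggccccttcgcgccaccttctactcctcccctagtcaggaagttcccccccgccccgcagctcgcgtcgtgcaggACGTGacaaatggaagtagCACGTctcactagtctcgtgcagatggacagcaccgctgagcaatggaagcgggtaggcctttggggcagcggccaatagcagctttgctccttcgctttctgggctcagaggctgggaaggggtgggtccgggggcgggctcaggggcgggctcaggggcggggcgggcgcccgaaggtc
Both windows hold 2 matches. The motif is in 19.6% of all 32851 windows and in 1 or more windows of 21.8% of 27025 genes, and in 13 of the 18 tested list members that have a window. Among those called higher with a window, 9 of 11 hold it. A match describes letters in this window and says nothing of binding.

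Bnip3, a mitophagy receptor and textbook HIF target (chr7:138890836-138909519, minus strand), had 54.5 and 40.7 CPM in washed cells, against 20.7 and 21.6 CPM in DMSO 24 h cells. Its log2 fold change was 1.17 ± 0.13 (SE, adjusted p = 1.25e-07), the largest among the called members, and both washed libraries lay above every DMSO library. Ldha, the enzyme that makes lactate (chr7:46841475-46855627, plus strand), had 1929 and 1800 CPM in washed cells, against 1368 and 1356 CPM in DMSO 24 h cells (0.45 ± 0.05, adjusted p = 1.83e-07). Pfkp, a phosphofructokinase that sets the pace of glycolysis (chr13:6579768-6648777, minus strand), had 364 and 313 CPM in washed cells, against 216 and 192 CPM in DMSO 24 h cells (0.73 ± 0.06, adjusted p = 2.31e-09). These 3 genes were also higher than in DMSO 1 h cells, by 1.29, 0.65 and 0.71. Pgk1, which makes ATP in glycolysis, had 520 and 501 CPM in washed cells, against 391.6 and 392.3 CPM in DMSO 24 h cells, a rise of 0.38 ± 0.05.

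Pdk1, the kinase that keeps pyruvate out of mitochondria, differed between the vehicles. It had 363 and 373 CPM in washed cells, against 265 and 276 CPM in DMSO 24 h cells, a rise of 0.45 ± 0.06 (adjusted p = 1.36e-06). DMSO 1 h cells had 391.9 and 387 CPM, and the log2 fold change over them was -0.08 (adjusted p = 0.302). The aldolase Aldoa (0.42), the growth factor Vegfa (0.31), Ndrg1 (0.65), P4ha1 (0.22), Pgam1 (0.23), Higd1a (0.27) and Ankrd37 (0.66) make up the rest of the called members. Hk2, Eno1, Gapdh, Car9, Pfkl, Egln3 and Adm were not called, and Pkm, Slc2a1 and Slc2a3 were listed at 0.

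The p53 targets had the most falls of any list. p53 is the transcription factor that halts the cell cycle or starts cell death after DNA damage, and many of its targets have a basal level in stem cells. Of 21 genes listed, 17 were tested, 15 fell and 0 rose, where 8.52% of all genes were lower. The median log2 fold change of the list was -0.75. The size of the fall differed between the references. Over DMSO 1 h the median was -0.16 and 4 members fell, where 13.3% of all genes fell. Over the inactive analog the median was 0.11, with 3 members higher and 0 lower, where 11.1% of all genes were lower. The summed level was 1958 and 1992 CPM in washed cells and 2110 and 2126 CPM in DMSO 1 h cells, against 2783 and 3068 CPM in DMSO 24 h cells. DMSO 24 h cells were the highest of these groups, with a list median of 0.52 over DMSO 1 h cells. At 6 h after washout the sum, 2796 and 2892 CPM, was near that of DMSO 24 h cells, and in cells still in BRM014 it was 1954 and 1940 CPM.

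Mdm2, the ubiquitin ligase that degrades p53 (chr10:117688875-117710758, minus strand), had 215 and 224 CPM in washed cells, against 340 and 364 CPM in DMSO 24 h cells (log2 fold change -0.68 ± 0.06, SE, adjusted p = 2.18e-09). The inactive analog gave 220 and 223 CPM and DMSO 1 h gave 235 and 254 CPM, close to the washed cells. Plk2, a polo-like kinase (chr13:110395046-110400844, plus strand), had 79.0 and 86.9 CPM in washed cells, against 147 and 160 CPM in DMSO 24 h cells (-0.89 ± 0.06, adjusted p = 3.12e-11). Plk2 was higher than under the inactive analog, by 0.32 (adjusted p = 0.000456). Trp73, a relative of p53, had 2.34 and 2.05 CPM in washed cells, against 7.62 and 8.23 CPM in DMSO 24 h cells (-1.85 ± 0.19, adjusted p = 3.22e-08), and its log2 fold change over DMSO 1 h was -1.02.

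Perp, a membrane protein of desmosomes and of p53-driven death, was 1 of the 4 targets that were also lower than in DMSO 1 h cells. It had 38.5 and 37.6 CPM in washed cells, against 64.3 and 70.4 CPM in DMSO 24 h cells (-0.82 ± 0.07, adjusted p = 2.24e-09). Its log2 fold change over DMSO 1 h cells was -0.75 (adjusted p = 5.25e-09), while the inactive analog had 36.3 and 37.1 CPM. The cell cycle inhibitor Cdkn1a (-0.75) and cyclin G1, Ccng1 (-0.60), were among the other falls. Aen and Gadd45a were not called, and Bax, Fas, Sesn1 and Sesn2 were listed at 0.

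**Figure D3:**
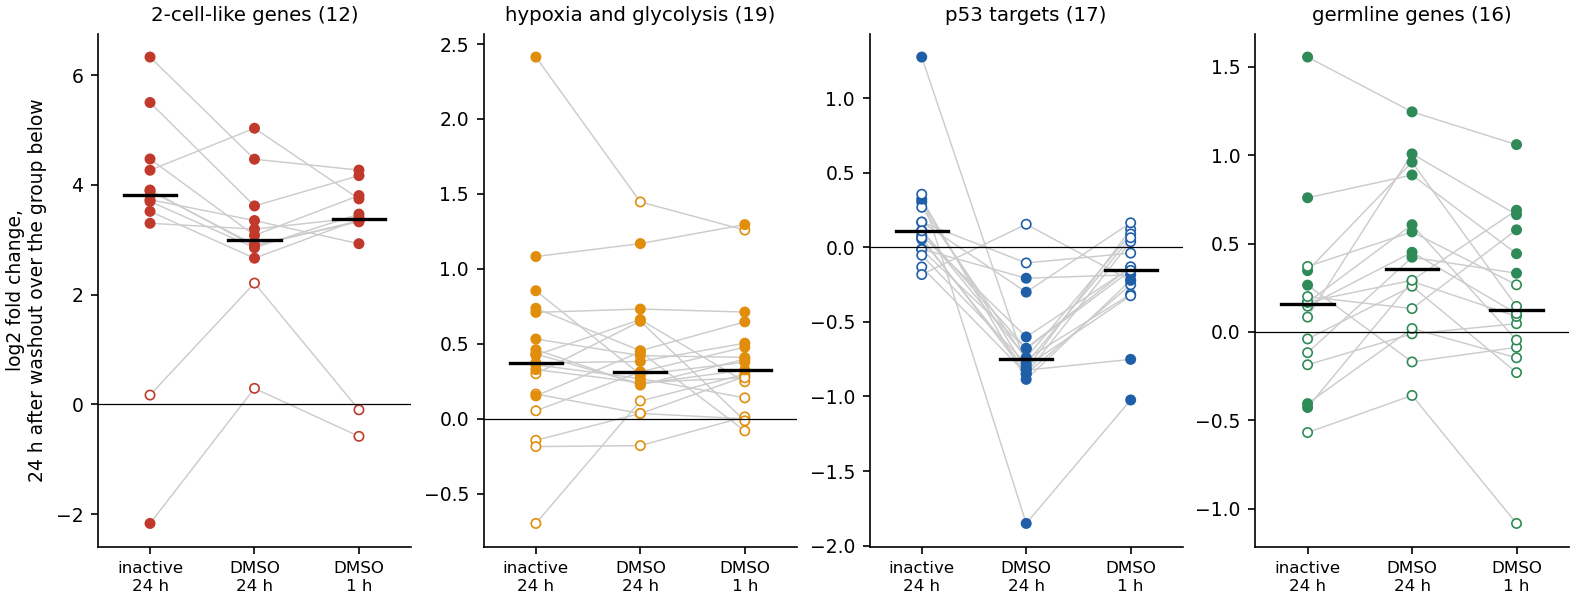
The log2 fold change of washed cells over the inactive analog 24 h, DMSO 24 h and DMSO 1 h is shown for members of 4 lists, filled where called, with a black line at the median. The 2-cell-like medians (3.81, 2.99 and 3.39) lie high over all 3 references, whereas the p53 medians are 0.11, -0.75 and -0.16.

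Germline genes leaned upwards. They encode proteins of meiosis and of transposon silencing by piRNAs, and many are kept off in somatic cells by promoter methylation. Of 18 genes listed, 16 were tested, 9 rose and 0 fell, with a median log2 fold change of 0.36, and 5 rose without DMSO 24 h replicate 1. Among all genes tested 8.91% were higher than in DMSO 24 h cells. Over DMSO 1 h 6 rose and the median was 0.12, where 12.9% of all genes were higher. In comparison with the inactive analog, 4 were higher, 2 were lower and the median was 0.16. There 12.5% of all genes were higher and 11.1% lower. Mael, which acts in piRNA granules, had 42.3 and 48.5 CPM in washed cells, against 21.6 and 23.6 CPM in DMSO 24 h cells (1.01 ± 0.09, adjusted p = 7.85e-09), with 30.5 and 26.9 CPM in DMSO 1 h cells. Tdrd1, a tudor-domain protein of the same pathway, had 20.6 and 21.5 CPM in washed cells, against 10.6 and 12.2 CPM in DMSO 24 h cells (0.89 ± 0.12, adjusted p = 4.73e-06). Sycp1, of the synaptonemal complex, had 34.5 and 36.0 CPM in washed cells, against 17.7 and 18.5 CPM in DMSO 24 h cells (0.96 ± 0.10). The Sycp1 value in DMSO 1 h cells was 32.5 and 31.3 CPM, near that of washed cells (0.15, adjusted p = 0.279), and the meiotic cohesin Stag3 was 0.61 over DMSO 24 h but -0.05 over DMSO 1 h.

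The pluripotency lists moved in both directions, where 8.91% of all genes tested were higher and 8.52% lower. Of 14 core pluripotency genes tested 4 rose and 3 fell (median 0.10), of 14 naive genes 4 rose and 2 fell (-0.07), and of 7 formative or primed genes 4 rose and 1 fell (0.26). Among 8 embryonic stem cell markers tested, 2 rose. One was Tdgf1, the Nodal co-receptor Cripto, with 1192 and 1193 CPM in washed cells, against 927 and 950 CPM in DMSO 24 h cells (0.35 ± 0.05, adjusted p = 8.8e-06). The other was Zfp42 (Rex1), with 629 and 672 CPM in washed cells, against 535 and 480 CPM in DMSO 24 h cells (0.36 ± 0.06). Pou5f1 (0.07, adjusted p = 0.589), Nanog (0.13, adjusted p = 0.178), Klf4 (-0.13, adjusted p = 0.354) and Esrrb (-0.07, adjusted p = 0.497) were not called. The largest rise of these lists was that of Dppa3 (Stella), an egg and germ cell factor that protects maternal methylation, with 11.4 and 9.10 CPM in washed cells, against 5.14 and 4.25 CPM in DMSO 24 h cells (1.12 ± 0.18, adjusted p = 4.49e-05). Falls rested on single libraries: without DMSO 24 h replicate 2, 0 core and 0 naive genes fell, without washout replicate 2, 1 of each, and without DMSO 24 h replicate 1, 2 formative genes.

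Keratin and epithelial genes were called in both directions, and the simple epithelial keratins Krt7, Krt8, Krt18 and Krt19 were among those that rose. Keratins 8 and 18 pair into the first intermediate filaments of the embryo. Of 20 keratin and epithelial genes listed, 18 were tested, 7 rose and 4 fell, with a median log2 fold change of 0.19. Among all genes tested 8.91% were higher and 8.52% lower. Krt18 (chr15:102028180-102032027, plus strand) had 182 and 186 CPM in washed cells, against 90.5 and 85.7 CPM in DMSO 24 h cells (1.06 ± 0.07, adjusted p = 1.42e-11). Its partner Krt8 had 222 and 207 CPM in washed cells, against 134 and 114 CPM in DMSO 24 h cells (0.79 ± 0.08, adjusted p = 1.7e-08). Cells still in BRM014 were lower than either group, with 62.4 and 63.3 CPM for Krt18 and 76.5 and 68.6 CPM for Krt8. Krt7 had 10.7 and 10.8 CPM in washed cells, against 3.26 and 2.73 CPM in DMSO 24 h cells (1.84 ± 0.18, adjusted p = 2.91e-08). These 3 were also higher than in DMSO 1 h cells, by 0.94, 0.59 and 1.91.

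Among the epithelial genes that fell was the cross-linking enzyme Tgm1, with 107 and 111 CPM in washed cells, against 158 and 152 CPM in DMSO 24 h cells (-0.51 ± 0.06, adjusted p = 9.61e-07). It had 15.2 and 14.4 CPM in BRM014, so that most of its loss in the drug was gone. The junction protein Jup (-0.50), Emp1 (-0.75) and Krt17 (-0.49) fell as well. Lad1 (0.58), the claudins Cldn7 (0.71) and Cldn6 (0.26), and Krt19 (0.49) rose. Over the inactive analog 9 members of this list were higher and 0 lower, with a median of 0.45. There 12.5% of all genes were higher and 11.1% lower.

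Markers of other cell types were counted because a change in cell type would show there. Among all genes tested 8.91% were higher and 8.52% lower. Of 7 trophoblast markers 5 were tested and 4 rose (median 1.02), with a sum of 482 and 458 CPM in washed cells, against 283 and 259 CPM in DMSO 24 h cells. The sum is mostly Krt8 and Krt18, which the keratin list also holds. Gata3 was listed at 0 in the 4 libraries, as many genes were, so nothing can be said of it. Cdx2 had 2.60 and 1.73 CPM in washed cells, against 1.15 and 0.891 CPM in DMSO 24 h cells (1.06 ± 0.34, adjusted p = 0.0299). The Cdx2 call was lost without washout replicate 1 (adjusted p = 0.268) or DMSO 24 h replicate 2 (adjusted p = 0.188), and 2 trophoblast markers were called in each of these fits. Of 6 primitive endoderm markers 2 fell and 0 rose (median -0.26), of 5 early mesoderm markers 1 fell (-0.39), of 3 neural ectoderm markers 1 rose and 1 fell (-0.02), and of 3 fibroblast markers 0 were called (0.10). Sox7, an endoderm factor, had 10.2 and 9.29 CPM in washed cells, against 16.6 and 21.8 CPM in DMSO 24 h cells (-0.97 ± 0.16, adjusted p = 5.37e-05), and Dab2 fell by 0.65. Without DMSO 24 h replicate 1, 4 endoderm markers fell, without washout replicate 2, 2 mesoderm markers fell, and without DMSO 24 h replicate 2, 0. The neural calls were lost without washout replicate 1, washout replicate 2 or DMSO 24 h replicate 2. The part of other cell types in these differences was not tested.

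**Figure D4:**
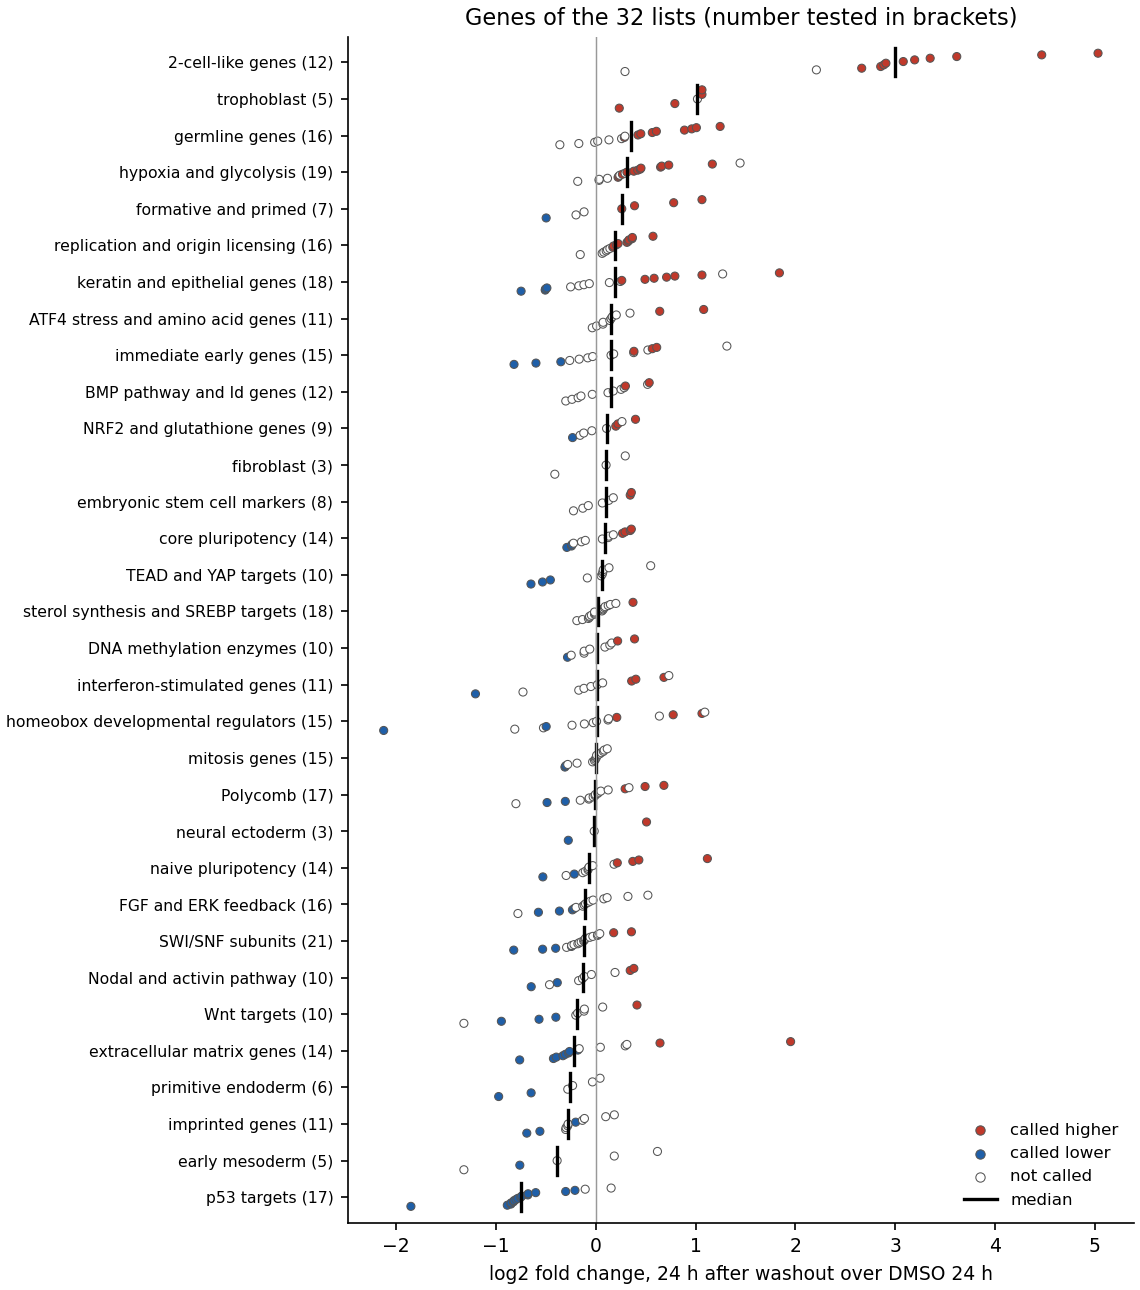
Each point is a member of 1 of 32 gene lists, with its log2 fold change in washed cells over DMSO 24 h cells. Red points were called higher, blue points called lower, white points not called, and the black line is the list's median, which is 2.99 for 2-cell-like genes and -0.75 for p53 targets.

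All replication genes that were called over DMSO 24 h were higher. Of 16 replication and origin licensing genes tested 10 rose and 0 fell, with a median of 0.19, where 8.91% of all genes were higher. In a fit of only the 4 libraries compared, 4 rose. Over DMSO 1 h 5 rose, where 12.9% of all genes were higher. Cyclin E2, Ccne2, which drives entry into S phase, had 47.1 and 44.98 CPM in washed cells, against 29.9 and 31.98 CPM in DMSO 24 h cells (0.57 ± 0.09, adjusted p = 2.24e-05). The licensing factor Cdc6 had 194 and 210 CPM in washed cells, against 159 and 155 CPM in DMSO 24 h cells (0.36 ± 0.06, adjusted p = 4.79e-05). Cdc45, of the replicative helicase, was 0.37 higher than in DMSO 24 h cells but -0.02 over DMSO 1 h. Of 15 mitosis genes tested 2 fell, with a median of 0.0044, and 4 fell without DMSO 24 h replicate 1 but 1 without each of the other libraries.

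Extracellular matrix genes fell in part, where 8.52% of all genes tested were lower and 8.91% higher. Of 14 tested 8 fell and 2 rose, with a median of -0.22, but 4 fell without washout replicate 1, 4 without washout replicate 2 and 4 without DMSO 24 h replicate 2, and over the inactive analog 2 fell. The basement membrane collagen Col4a2 had 438 and 380 CPM in washed cells, against 509 and 589 CPM in DMSO 24 h cells (-0.42 ± 0.07, adjusted p = 8.12e-05). Coch, a secreted matrix protein, had 22.9 and 21.9 CPM in washed cells, against 15.6 and 13.001 CPM in DMSO 24 h cells (0.64 ± 0.12, adjusted p = 0.000483), where cells still in BRM014 had 129 and 113 CPM.

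Signalling lists held calls in 1 or both directions, where 17.4% of all genes tested were called. Of 10 Wnt targets tested 1 rose and 3 fell (median -0.19). Over DMSO 1 h 6 fell (-0.75), where 13.3% of all genes fell. Cyclin D1, Ccnd1, had 221 and 207 CPM in washed cells, against 305 and 329 CPM in DMSO 24 h cells (-0.57 ± 0.05, adjusted p = 8.42e-09), and 0.09 over the inactive analog. Of 10 TEAD and YAP targets 3 fell (0.06), led by the matricellular Ccn2 with 117 CPM in both washed libraries, against 179 and 187 CPM in DMSO 24 h cells (-0.65 ± 0.06, adjusted p = 7.87e-09). Ccn2 was also lower than in DMSO 1 h cells, by a log2 fold change of -1.18. Of 10 Nodal and activin genes 2 rose and 2 fell (-0.12), of 12 BMP and Id genes 2 rose (0.15), of 16 FGF and ERK feedback genes 4 fell (-0.11) and of 15 immediate early genes 3 rose and 3 fell (0.15). These small counts moved with the libraries left out: without DMSO 24 h replicate 2 the calls were 0 Wnt rises, 0 BMP and Id rises, 1 Nodal rise, 1 Nodal fall and 2 FGF falls. Without washout replicate 2 they were 0 Wnt rises, 1 BMP and Id rise, 1 Nodal fall and 1 FGF fall, and without washout replicate 1, 0 Wnt rises, 1 BMP and Id rise, 1 Nodal rise and 1 immediate early rise.

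The amino acid stress, sterol synthesis, NRF2 and interferon lists had medians between 0.02 and 0.15 over DMSO 24 h. Among all genes tested 8.91% were higher and 8.52% lower over DMSO 24 h, and 12.9% were higher over DMSO 1 h. Of 11 ATF4 stress and amino acid genes tested 2 rose (median 0.15), while over DMSO 1 h 10 rose (0.93). Nupr1, a stress-induced chromatin protein, had 43.2 and 47.8 CPM in washed cells, against 23.1 and 19.8 CPM in DMSO 24 h cells (1.08 ± 0.13, adjusted p = 5.88e-07), and 9.67 and 11.0 CPM in DMSO 1 h cells. Of 18 sterol synthesis genes 1 rose (0.03), of 9 NRF2 and glutathione genes 3 rose and 1 fell (0.11), and of 11 interferon-stimulated genes 3 rose and 1 fell (0.02). G6pdx, which feeds the pentose phosphate pathway, had 134 and 133 CPM in washed cells, against 95.5 and 107 CPM in DMSO 24 h cells (0.40 ± 0.06, adjusted p = 3.61e-05). The sterol rise was not called without washout replicate 1, 1 NRF2 rise was called without washout replicate 2 or DMSO 24 h replicate 2, and 2 interferon-stimulated genes fell without either washout library.

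Chromatin regulators were called in both directions, where 8.91% of all genes tested were higher and 8.52% lower. Whether the small counts of these lists differ from those shares was not tested. Of 21 SWI/SNF subunits tested 2 rose and 4 fell (median -0.12), of 17 Polycomb genes 3 rose and 2 fell (-0.0034), and of 10 DNA methylation enzymes 2 rose and 1 fell (0.02). Arid1b, a large BAF subunit, had 65.6 and 60.5 CPM in washed cells, against 82.2 and 100 CPM in DMSO 24 h cells (-0.53 ± 0.08, adjusted p = 1.59e-05). Phf10, a PBAF subunit, had 182 and 188 CPM in washed cells, against 140 and 148 CPM in DMSO 24 h cells (0.36 ± 0.05, adjusted p = 2.55e-05), but -0.12 over the inactive analog. The methyltransferase Dnmt3b had 598 and 636 CPM in washed cells, against 469 and 474 CPM in DMSO 24 h cells (0.39 ± 0.06, adjusted p = 8.98e-06). Of 11 imprinted genes 3 fell (-0.28), and of 15 homeobox developmental regulators 3 rose and 2 fell (0.01). Without DMSO 24 h replicate 2 the calls were 1 rise and 2 falls among SWI/SNF subunits, 0 Polycomb falls, 0 DNA methylation falls, 1 imprinted fall and 1 homeobox fall. Without washout replicate 1 they were 1 rise and 2 falls among SWI/SNF subunits, 1 Polycomb fall, 1 rise and 0 falls among DNA methylation enzymes, and 1 rise and 1 fall among homeobox genes. Without washout replicate 2 they were 1 SWI/SNF rise, 1 Polycomb fall, 1 DNA methylation rise, 1 imprinted fall and 1 homeobox fall, and without DMSO 24 h replicate 1, 1 Polycomb fall and 1 rise and 3 falls among DNA methylation enzymes.

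Genes that BRM014 itself changes were followed next. In the second batch, which shares no library with the washout comparison, 975 genes (7.43%) were lowered and 653 (4.97%) raised by at least 2-fold after 24 h of BRM014. Of these, 950 and 601 were tested after washout. Among the 950 lowered genes, 162 were still lower than in DMSO 24 h cells (17.1%, against 8.52% of all genes), 90 were higher (9.47%, against 8.91%) and 698 were not called. Among the 601 raised genes, 88 were still higher (14.6%, against 8.91%), 19 were lower (3.16%, against 8.52%) and 494 were not called. The median of the lowered genes over DMSO 24 h was -1.54 in BRM014, -0.21 at 6 h after washout and -0.11 at 24 h, with quartiles of -0.46 and 0.27 at 24 h. The median of the raised genes was 1.24 in BRM014, 0.58 at 6 h and 0.12 at 24 h, with quartiles of -0.17 and 0.52.

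Of the 950 lowered genes tested, 117 were lower than both DMSO 24 h and DMSO 1 h cells, and of the 601 raised genes 51 were higher than both. Among all genes tested, 4.37% were lower and 5.02% higher than both. The picture differed over the inactive analog, since 37 of the lowered genes were lower and 295 higher, and 38 of the raised genes were higher and 109 lower. Over that reference 11.1% of all genes tested were lower and 12.5% higher. The inactive analog itself lay apart from DMSO 24 h. On the first principal component, the axis of largest variation in the batch, its libraries were at 9.83 and 9.09. DMSO 24 h cells were at -8.70 and -7.65, and cells in BRM014 for 24 h at 46.0 and 45.5. A gene higher than under the analog thus need not be higher than under DMSO. The counts also moved with single libraries. Still lower were 99 genes without washout replicate 2 and 107 without DMSO 24 h replicate 2, and higher among the lowered genes were 46 without DMSO 24 h replicate 2. Still higher among the raised genes were 58 without washout replicate 2. Lower among the raised genes were 12 without washout replicate 1, 32 without DMSO 24 h replicate 1 and 10 without DMSO 24 h replicate 2.

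**Figure D5:**
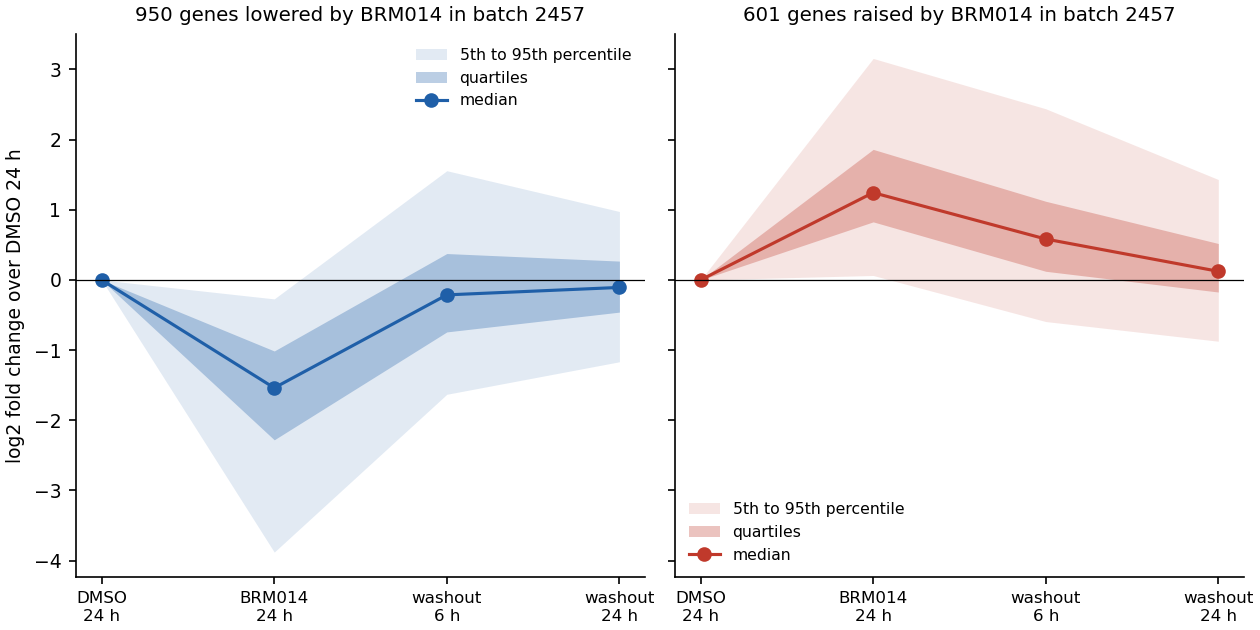
The median, quartiles and 5th to 95th percentile of the log2 fold change over DMSO 24 h are drawn for 950 genes lowered and 601 genes raised by BRM014 in the other batch, at DMSO 24 h (0), BRM014 24 h, washout 6 h and washout 24 h. The medians return towards 0, to -0.11 and 0.12, while the quartiles stay on both sides of it.

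Of the 8 genes that the drug lowered most in the other batch, Mymx and Aqp8 were not called after washout, Skor1, Igsf21, Irf4, Inhbb and Hopx were still lower, and Hal was higher. The Irf4 call was lost without any 1 of the 4 libraries (adjusted p = 0.0679 to 0.157), as was that of Hal (0.0565 to 0.121), and that of Hopx without washout replicate 2 (0.261) or DMSO 24 h replicate 1 (0.168). Of the 8 genes raised most, 6 were not called. Car14 and Vcam1 were still higher, the Vcam1 call being lost without washout replicate 2 (adjusted p = 0.0644) or DMSO 24 h replicate 2 (0.115). Mymx, the fusion peptide of muscle cells also called myomixer, had 53.3 and 48.1 CPM in DMSO 24 h cells, 5.25 and 5.57 CPM in BRM014, 29.7 and 25.4 CPM at 6 h and 50.8 and 42.8 CPM at 24 h after washout (log2 fold change of 24 h washout over DMSO 24 h -0.12, adjusted p = 0.514). The water channel Aqp8 was also near its DMSO 24 h level (-0.22, adjusted p = 0.407). Cryab, a small heat shock protein, had 23.1 and 23.3 CPM in DMSO 24 h cells, 122 and 152 CPM in BRM014, 82.9 and 79.4 CPM at 6 h and 23.8 and 25.04 CPM at 24 h after washout (0.08, adjusted p = 0.672). Inhbb, a subunit of activin and among the most lowered genes, had come back in part. It had 276 and 253 CPM in DMSO 24 h cells, 8.03 and 9.25 CPM in BRM014, 78.5 and 79.2 CPM at 6 h and 182 and 156 CPM at 24 h (-0.65 ± 0.07, adjusted p = 9.61e-08), and was lower than both vehicles and the inactive analog (249 and 233 CPM).

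Several lowered genes with low levels were lower than in DMSO 24 h cells at 24 h after washout. Kbtbd11, a kelch and BTB protein (chr8:15011025-15033333, plus strand), had 8.91 and 9.23 CPM in DMSO 24 h cells, 0.556 and 0.818 CPM in BRM014, 4.46 and 4.69 CPM at 6 h and 2.75 and 2.46 CPM at 24 h after washout (-1.80 ± 0.16, adjusted p = 4.85e-09). Its level was thus higher at 6 h than at 24 h of washout, so the loss in the drug did not simply persist. For this gene the inactive analog had 3.03 and 3.31 CPM, near the washed cells (-0.29, adjusted p = 0.291). Skor1, a co-repressor of the SKI family, had 3.46 and 2.64 CPM in washed cells, against 9.09 and 11.4 CPM in DMSO 24 h cells (-1.75 ± 0.19, adjusted p = 1.25e-07). Ihh, the Indian hedgehog ligand (-1.59), the XIAP-associated Xaf1 (-1.37) and Mmrn2, an endothelial matrix protein (-1.37), were further cases, but Mmrn2 was 0.43 over the inactive analog.

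Other lowered genes overshot. Dusp27, an inactive member of the dual-specificity phosphatases (chr1:166098148-166127922, minus strand), had 38.02 and 35.3 CPM in DMSO 24 h cells, 18.7 and 19.4 CPM in BRM014, 194 and 184 CPM at 6 h and 86.6 and 89.1 CPM at 24 h after washout. Its log2 fold change over DMSO 24 h at 24 h was 1.26 ± 0.08 (adjusted p = 1.19e-11), and it was 1.27 over DMSO 1 h and 1.97 over the inactive analog. The zinc finger repressor Snai3 had 15.7 and 15.5 CPM in washed cells and 2.63 and 2.15 CPM in BRM014, against 7.71 and 7.602 CPM in DMSO 24 h cells (washed over DMSO 24 h 1.03 ± 0.13, adjusted p = 7.81e-07). The G protein subunit Gna14 had 12.1 and 9.74 CPM in washed cells, against 5.14 and 6.19 CPM in DMSO 24 h cells (0.95 ± 0.15, adjusted p = 6.08e-05).

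Of the raised genes that were higher than in DMSO 24 h cells a day after washout, some were not called over DMSO 1 h. Ccno, a cyclin needed for multiciliated cells, had 3.44 and 3.98 CPM in DMSO 24 h cells, 36.2 and 40.2 CPM in BRM014, 5.49 and 5.39 CPM at 6 h and 13.9 and 9.88 CPM at 24 h (1.68 ± 0.18, adjusted p = 1.01e-07), but 0.39 over DMSO 1 h (adjusted p = 0.068). Its level was thus lower at 6 h than at 24 h of washout, so it did not stay high throughout. The meiotic cohesin Smc1b was 1.10 over DMSO 24 h and -0.05 over DMSO 1 h. Car14, a carbonic anhydrase, was higher than both, by 1.83 and 1.496, at 2.85 and 2.05 CPM in washed cells, against 1.01 and 0.315 CPM in DMSO 24 h cells.

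Among all well-detected genes with a settled symbol, the largest falls and rises included genes outside the lists. Ano3, a lipid scramblase of the anoctamin family, had 3.46 and 2.78 CPM in washed cells, against 11.7 and 13.8 CPM in DMSO 24 h cells (-2.03 ± 0.16, adjusted p = 2.11e-10). Inpp5d (SHIP1), a lipid phosphatase that opposes PI3-kinase (chr1:87620312-87720507, plus strand), had 90.8 and 87.9 CPM in washed cells, against 207 and 218 CPM in DMSO 24 h cells (-1.25 ± 0.07, adjusted p = 1.39e-13). The inactive analog had 124 and 130 CPM and DMSO 1 h cells had 137 and 139 CPM, so that washed cells were lowest and DMSO 24 h cells highest of these groups. Igdcc4, an immunoglobulin-domain receptor, had 14.6 and 15.8 CPM in washed cells, against 34.5 and 34.8 CPM in DMSO 24 h cells (-1.19 ± 0.09, adjusted p = 6.31e-11), and was lower than DMSO 1 h cells by a log2 fold change of -1.0006. Zfp365 (-1.32), Slco4a1 (-1.37), Trpa1 (-1.21), Mab21l3 (-1.27) and Zbtb7c (-1.27) were further falls. Amn (-1.29) and Nkx2-9 (-1.32) also fell, but Amn was lost without washout replicate 2 (adjusted p = 0.169) and without either DMSO 24 h library (0.0658 and 0.0787), and Nkx2-9 without washout replicate 2 (0.0652).

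Of the rises outside the lists, Gpa33, an intestinal surface antigen, had 37.9 and 37.2 CPM in washed cells, against 17.1 and 15.2 CPM in DMSO 24 h cells (1.22 ± 0.10, adjusted p = 3.58e-10). Ddr2, a collagen receptor kinase, had 8.86 and 7.97 CPM in washed cells, against 2.62 and 3.36 CPM in DMSO 24 h cells (1.498 ± 0.21, adjusted p = 5.4e-06), with 0.808 and 0.818 CPM in BRM014. Tle6, of the egg's subcortical maternal complex, rose by 1.20 over DMSO 24 h, but was -0.36 over DMSO 1 h.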

How the data were processed

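Stranded total RNA of mouse embryonic stem cells was sequenced by the submitters with TruSeq kits, per the labels' protocols. The authors deposited raw gene counts. The submitters' processing notes name bcl2fastq 2.17, STAR and the build GRCm38 (mm10). Which program counted the reads, on which annotation, is not given in the sources used here. All 38 columns of 55385 genes were matched to samples, and 55144 gene identifiers matched GENCODE M21, which gave the coordinates. Library totals were 19.35 to 23.05 M counts over the 26 libraries of the batch that holds the washout. At this depth the 95% interval of a log2 fold change spanned a median of ± 0.166 over 6608 well-expressed genes.

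The fits used edgeR 4.0.16 (R 4.3.3), a procedure checked on simulated data. Genes with low counts were removed with filterByExpr (groups given, at least 10 counts and a total of at least 15). Libraries were scaled by TMM (factors between 0.9675 and 1.0264), contrasts were tested by robust quasi-likelihood, and p-values were adjusted after Benjamini and Hochberg over all genes of the fit. Calls are at an adjusted p under 0.05. All 13 groups of 2 libraries entered 1 fit, because each group has 2 libraries and shares the estimate of the spread (biological coefficient of variation 6.15%, 13 residual degrees of freedom). The 12 libraries of the second batch, 6 groups of 2 with Ino80ko and Snf2hko cells among them, were fitted apart (13130 genes) to choose drug-responsive genes, since the washout is in 1 batch only. CPM values use TMM-scaled library totals, errors of fold changes are SE, and counting intervals cover counting error only.

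The libraries compared and the 32 gene lists were chosen with earlier results of these data known. Named genes follow a rule: the 15 largest rises and 15 falls among called genes with a mean log2 CPM of at least 2, groups that do not overlap and no predicted symbol; the 8 largest, 8 most lasting and 5 most opposite drug-chosen genes in each direction; up to 4 called members per list with the smallest p; and Smarca2, Smarca4 and stem cell markers. Other list members are named as the rest of their list. A few genes that the rule names are not reported here. Promoter windows are RefSeq's for GRCm38.p6. Alternatives were DESeq2 1.42.0, RLE size factors, no filter, only the 4 libraries, a replicate block, each library left out, and other references.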

Additional observations from a re-analysis of the deposited data

How the results depend on the processing

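With each of the 4 libraries left out, and for the counts against both vehicles each DMSO 1 h library too, the count higher ranged from 624 to 1234, lower from 508 to 1377, higher by at least 2-fold from 173 to 247, and lower by at least 2-fold from 62 to 125. The count higher than both vehicles ranged from 432 to 562 and lower than both from 295 to 565. Of genes that the drug lowered, 99 to 136 stayed lower and 46 to 76 were higher. Of genes it raised, 58 to 72 stayed higher and 10 to 32 were lower. Against BRM014 24 h, 5155 to 5507 genes were called. DESeq2 called 147 genes higher by at least 2-fold. A fit of only the libraries compared, with few residual degrees of freedom, used the 4 libraries, the DMSO 1 h pair as well for the counts against both vehicles, and a separate fit of the BRM014 and DMSO libraries of batch 2457 to choose drug-affected genes. It called 351 higher, 304 lower, 153 higher and 55 lower by at least 2-fold, 369 higher and 269 lower than both vehicles, 77 lowered genes lower and 40 higher, and 38 raised genes higher and 5 lower.

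With DMSO 1 h as the reference, 1665 genes were lower, 258 by at least 2-fold, with 244 lowered genes lower and 53 raised genes lower. With the mean of both vehicles 137 were lower by at least 2-fold and 40 raised genes lower. With the inactive analog 470 were higher by at least 2-fold, and the drug-chosen counts were 37 lower and 295 higher among lowered genes and 109 lower and 38 higher among raised genes. The cause of these shifts was not tested. No named gene called in the reported fit or under the alternative changed direction under DESeq2, other size factors, no filter, the fit of 4 libraries or any of those 4 left out. Sign changes of genes called in neither fit are not counted here or below. Of 154 named genes, 20 did so over DMSO 1 h: Bbc3 0.0371, Btg2 0.12, Cdc45 -0.0161, Dppa2 -0.24, Dync1i1 -0.80, Esrrb 0.38, Fgfr1 0.21, Got1l1 0.0318, Grb10 0.69, Hal -0.19, Id3 -0.38, Mmp2 0.60, Notch4 -0.0607, Notum -0.42, Pdk1 -0.0821, Plk1 0.0545, Smc1b -0.0475, Stag3 -0.0456, Tle6 -0.36 and Tmprss11d -1.12. Over the mean of both, 2 did so, Grb10 0.24 and Notum -0.0048. Over the inactive analog 27 did so: Aqp8 1.53, Btg2 0.30, Ccnd1 0.0893, Ccnd2 0.21, Chac1 -0.44, Dab2 0.15, Dppa2 -0.14, Dppa5a -0.26, Dync1i1 -0.56, Ezh1 -0.10, Igsf21 0.0301, Irf4 0.76, Mmp2 0.36, Mmrn2 0.43, Nes 0.21, Nkx2-9 0.18, Nnat 0.0088, Perp 0.0531, Phf10 -0.12, Plk1 0.0568, Plk2 0.32, Six4 -0.0647, Sox7 0.0528, Sp5 0.55, Tcf23 0.61, Tmprss11d -1.09 and Trp73 0.36.

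Same-numbered libraries of washed and DMSO 24 h cells did not deviate together (r = 0.066). No shared effect of the replicate number was thus seen, but this cannot tell whether same-numbered libraries were prepared together. With a replicate block 1133 genes were higher and 1080 lower, and 1 named call, Spred2, was lost. Depth limits genes with few counts, such as Usp17la and Zfp352, to wide intervals, and no fit can separate washout from the longer culture.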

Other observations

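Many of the largest rises lay side by side in the genome. By a rule set after the values were seen, runs of at least 4 neighbouring genes called higher by at least 2-fold, with starts at most 200000 bases apart, made 5 clusters with 27 of the 235 such genes. Coordinates are of build GRCm38. In the Zscan4 cluster at chr7:10794242-11614112, 10 of 12 tested genes were higher, with log2 fold changes of 2.28 to 4.36 among them. At chr10:104160006-104196522 the predicted genes Gm8764 to Gm4340 were all higher (5 of 5, 2.97 to 3.40). Their sum was 90.2 and 84.1 CPM in washed cells, 35.0 and 39.2 CPM at 6 h of washout and 4.70 and 4.50 CPM in BRM014, against 9.87 and 9.44 CPM in DMSO 24 h cells. At chr12:87618869-87877859, from Gm4027 to Gm2016 with BB287469 between them, 4 of 4 were higher (1.74 to 2.97). Their sum was 68.2 and 73.5 CPM in washed cells, against 12.7 and 13.4 CPM in DMSO 24 h cells. At chr13:120172433-120318178, from Gm21818 to Tcstv3, 4 of 4 were higher (3.62 to 5.17), with a sum of 10.6 and 9.88 CPM in washed cells, against 0.551 and 0.472 CPM in DMSO 24 h cells. At chr3:94047981-94266784, which holds Gm9125 and Spopfm2, 4 of 4 were higher (3.52 to 6.87), with 2.80 and 3.51 CPM in washed cells, against 0.0459 and 0.157 CPM in DMSO 24 h cells. In each cluster the sum of either washed library lay above that of all 22 libraries other than the 24 h and 6 h washouts, the highest of which were 32.7 (Zscan4), 9.87, 14.11, 0.894 and 0.375 CPM in the order given here. The runs and sums were built from genes chosen as higher in washed cells. High counts of rises and high sums follow in part from that choice and are no separate evidence. Neighbouring copies can share reads, which would link their counts, and this was not tested.

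Lars2, a mitochondrial leucyl-tRNA synthetase, was chosen here after its values were seen. It had 921 and 739 CPM in washed cells, against 132 and 41.3 CPM in DMSO 24 h cells, without a call (log2 fold change 3.25 ± 1.29, adjusted p = 0.105), and 432 and 220 CPM in DMSO 1 h cells. The identifier ENSMUSG00000086324 had 91.9 and 77.4 CPM in washed cells, against 9.14 and 1.05 CPM in DMSO 24 h cells, again without a call (4.00 ± 1.62, adjusted p = 0.112).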
